A study of Mus musculus with 12 samples.

Results

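The genes of the dividing cell were followed in mouse CD4+ T cells that had been sorted by a reporter for Eomes, which encodes a T-box factor of effector T cells. A list of 47 genes was taken by symbol from the count matrix, in which all 47 were found among 43626 genes. It was split by textbook role into 22 replication genes, which act in G1/S and S phase, and 25 mitosis genes, which act in G2 and M phase. RNA was sequenced from 12 libraries, 3 in each of 4 groups. CD45RBhi CD25- naive CD4+ cells from reporter mice had been placed in adult male Rag2-/- recipients, and splenic CD4+ cells were sorted by their GFP signal 3 weeks later. The donors labelled Het carried Eomes flox/GFP and no cre, so that 1 allele was floxed and the other carried the GFP reporter. The donors labelled KO carried the same 2 alleles with Lck-cre, a recombinase that acts in T cells. Each genotype gave GFP-negative and GFP-positive cells from 3 recipients, and the libraries with the same number in a genotype came from one recipient. Rag2-/- mice lack T and B cells but keep their myeloid, erythroid and natural killer cells. Whether donor cells were pooled is not given in the sources used here.

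A cell that leaves quiescence first activates E2F transcription factors, which turn on the genes of DNA replication. CDC6 and CDT1 load the MCM helicase on origins, MCM10, CDC45 and the GINS complex set it in motion, and PCNA, ribonucleotide reductase and thymidylate enzymes serve the fork. Later the factor FOXM1 acts with the MuvB complex at CHR elements to raise the genes of mitosis, such as the cyclin B kinase, Polo and Aurora kinases, centromere proteins and spindle motors. Naive T cells that enter a host without lymphocytes are known to divide there.

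Total counts per library ran from 2116894 to 18167236, and the members together took 7195 to 138052 counts per library, in each case lowest in KO GFP-positive replicate 2. All 47 members passed the filter on low counts. Mitochondrial ribosomal RNAs and other dominant features, 4 in all, took 58.3% and 54.3% of the counts in Het and KO GFP-positive replicate 2 and 16.3% to 30.9% elsewhere. The GFP-positive sorts held 18000 to 117000 cells and the GFP-negative sorts 645000 to 2100000, so sort size and depth cannot be told apart from the reporter. Eomes itself was at 2.16 to 9.19 and 1.95 to 4.73 CPM (counts scaled to library size) in Het and KO GFP-negative libraries, and at 89.8 to 123 and 31.6 to 46.6 CPM in Het and KO GFP-positive libraries. These counts cover the whole gene and so do not check the deletion. KO GFP-positive replicate 1 stood apart: its score of -17.8 on the first principal component lay among the GFP-negative libraries (-64.6 to -17.0) and not with the other KO GFP-positive libraries (29.6 and 85.4). Its values are therefore given with and without it where a result rests on them.

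The defining markers of CD4 T cells were present in every library. The summed CPM of Cd3e, Cd3d, Cd3g, Cd4, Cd5 and Cd28 was 1828 to 2330 in GFP-negative and 1190.4 to 1565 in GFP-positive libraries, and lower in the GFP-positive library of 6 of 6 recipients, with 4 of the 6 genes called lower in the mean of both GFP comparisons. Markers of CD8 T cells and B cells summed to at most 4.57 and 2.12 CPM. Marker sums of granulocytes, monocytes and erythroid cells were higher with GFP. The sum over 4 natural killer (NK) genes, at most 8.88 CPM, was lower with GFP in 6 of 6 recipients. The sum over 10 granulocyte and precursor genes was higher in the GFP-positive library of 6 of 6 recipients, with 254 to 2184 CPM without and 722 to 5642 CPM with GFP in Het, and 34.1 to 910.0 CPM without and 361 to 2254 CPM with GFP in KO libraries. The sums over 6 monocyte and macrophage genes (25.4 to 235 CPM in GFP-negative, 142 to 928 in GFP-positive) and 8 erythroid genes (5.24 to 86.5 and 26.5 to 209) were also higher in 6 of 6. In the same mean comparison 5 of 6 monocyte, 4 of 8 erythroid and 0 of 9 tested granulocyte genes were called higher. No marker of the CD8, B, NK, myeloid or erythroid lists was at 0 in all libraries. KO GFP-positive replicate 3, which had the highest replication score below, had the lowest granulocyte sum of the GFP-positive libraries, 361 CPM. The GFP-negative library of its recipient had 34.1 CPM, the lowest of all libraries. Het GFP-positive replicate 3 went the other way, with the highest granulocyte sum of all libraries, 5642 CPM. It also had the highest replication score of the Het libraries, 6.28. In its recipient the GFP-negative library had the highest granulocyte sum of the GFP-negative libraries, 2184 CPM. The part of such cells in the results below was not tested.

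Each library was scored by the mean log2 CPM of its replication genes and of its mitosis genes. The replication score was 5.58 ± 0.19 in Het GFP-negative, 6.02 ± 0.24 in Het GFP-positive, 5.97 ± 0.23 in KO GFP-negative and 6.23 ± 0.33 in KO GFP-positive libraries (SD, n = 3 each). The mitosis score was 5.86 ± 0.26, 6.14 ± 0.20, 6.31 ± 0.25 and 6.42 ± 0.36 in the same order (SD, n = 3 each). In the replication score the 3 Het GFP-negative libraries lay below all others, and the other 3 groups overlapped. In the mitosis score each group overlapped with the next. In a bulk sample such a score cannot tell a larger share of cells in cycle from more RNA per cycling cell.

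Within recipients the replication score differed by 0.32, 0.50 and 0.49 in Het recipients 1 to 3 (GFP-positive minus GFP-negative) and by 0.51, -0.01 and 0.26 in KO recipients 1 to 3, a mean of 0.35 ± 0.20 (SD, n = 6). The mitosis score differed by 0.24, 0.41 and 0.20 in the Het and by 0.39, -0.09 and 0.02 in the KO recipients, a mean of 0.19 ± 0.20 (SD, n = 6). The balance of both, mitosis minus replication, was lower in the GFP-positive library of 6 of 6 recipients, by differences of -0.29 to -0.08. KO recipient 1, whose GFP-positive library stood apart, gave the largest difference of the replication score, and KO recipient 2, with the shallowest library, the smallest. With DESeq2 size factors the replication difference of KO recipient 2 was 0.05 instead of -0.01, and the balance was unaltered at -0.29 to -0.08.

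**Figure D1:**
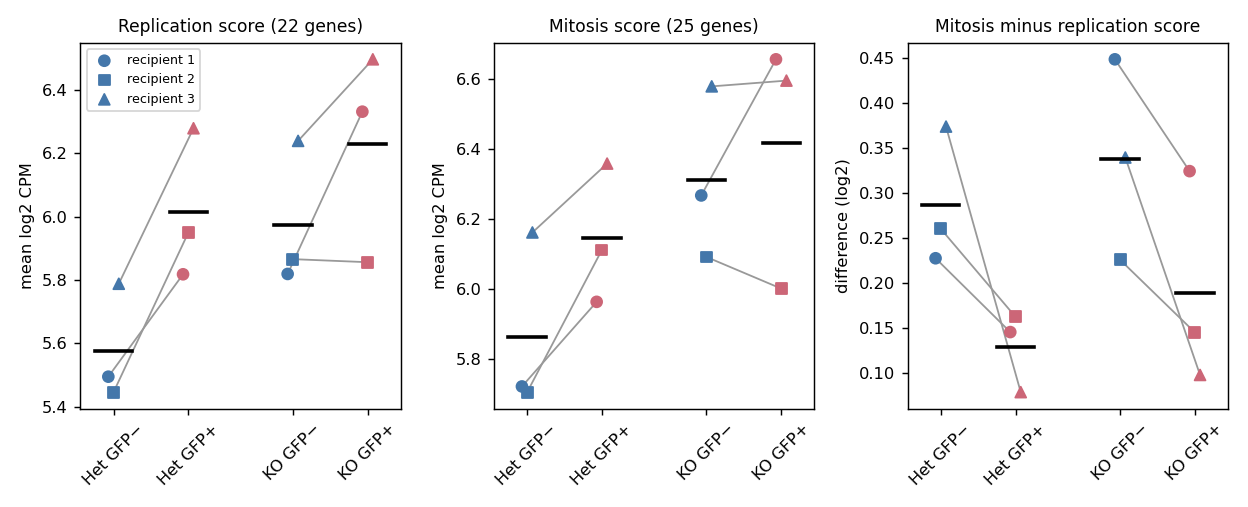
Replication score, mitosis score and their difference (mean log2 CPM) for the 12 libraries by group. Lines join the GFP-negative (blue) and GFP-positive (red) library of one recipient, symbols give the recipient number within a genotype, and black bars are group means. The difference falls along all 6 lines, while the mitosis score rises steeply in 1 KO recipient and hardly or not at all in the other two.

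The comparison of GFP-positive with GFP-negative Het cells describes, per the design text, the cells that express Eomes. Of the 47 members, 41 had a higher level in Het GFP-positive than in Het GFP-negative cells in the fit, and 0 passed an adjusted p (false discovery rate, FDR) of 0.05 by edgeR's quasi-likelihood test, where 3.45% of the 13238 tested genes passed. The median log2 fold change of the members was 0.32, against -0.02 over all tested genes. At an unadjusted p under 0.05 stood 19 members, all higher, and the smallest FDR was that of Foxm1, 0.0528. For this and later counts at an unadjusted p, the share of all tested genes is not given here. Such counts therefore do not set the members against all genes. The groups did not overlap for 18 members, all higher in GFP-positive cells, where 12.7% of all genes did not overlap in that direction. DESeq2 called 11 members, all higher, where it called 9.03% of all genes.

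In KO cells 36 of 47 members were higher with GFP, with a median log2 fold change of 0.20 against -0.02 over all tested genes, and 0 were called by edgeR, where 0.128% of all genes were called. At an unadjusted p under 0.05 stood 8 members, all higher, and DESeq2 called Cenpe and Foxm1, where it called 3.05% of all genes. The groups did not overlap for 7 members, all higher with GFP, where 9.52% of all genes did not overlap in that direction. Without KO GFP-positive replicate 1, 4 members were called by edgeR, Cenpe, E2f1, E2f8 and Foxm1, all higher, where 12.6% of all genes were called.

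The mean of both GFP comparisons, which draws on all 6 recipients, called 12 members, all higher in GFP-positive cells, by edgeR (FDR under 0.05), where 18.1% of all tested genes were called in either direction and 9.91% as higher. They were Cdc6, Cdt1, Gins2, Mcm10, Tk1, Uhrf1, E2f1 and E2f8 among the 22 replication genes and Foxm1, Plk1, Cenpe and Cenpf among the 25 mitosis genes. The median log2 fold change was 0.37 for replication and 0.17 for mitosis genes, against -0.02 over all tested genes. With the recipient as a block, so that both libraries of a mouse are set against each other, 22 members were higher and Pcna was lower, where 20.3% of all genes were called higher and 20.7% lower. The same block gave 18 higher members in Het cells, where 12.8% of all genes were higher, and 10 in KO cells, where 9.6% were, with 0 lower in both. Without both libraries of KO recipient 1 the KO comparison with the block gave 9 members higher and 5 lower (Pcna, Ccna2, Ccnb1, Nusap1 and Ube2c), where 14.1% of all genes were higher and 14.9% lower.

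Cenpe, E2f1, E2f8 and Foxm1 were called in all 20 settings run for the mean comparison, and the other 8 in 8 to 19 of them. The count of 12 fell to 4 without KO GFP-positive replicate 3, to 6 without Het GFP-negative replicate 2 and to 7 without KO GFP-negative replicate 1. The shares of all genes called in these 3 fits are not given here. Over the settings run the calls over all genes ran from 713 to 6204. A drop in the members therefore cannot be told apart from a drop over all genes. The blocked fit without both libraries of KO recipient 1 called 20 members higher and 4 lower (Pcna, Ccna2, Ccnb1 and Nusap1), where 22.9% of all genes were called in each direction.

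**Figure D2:**
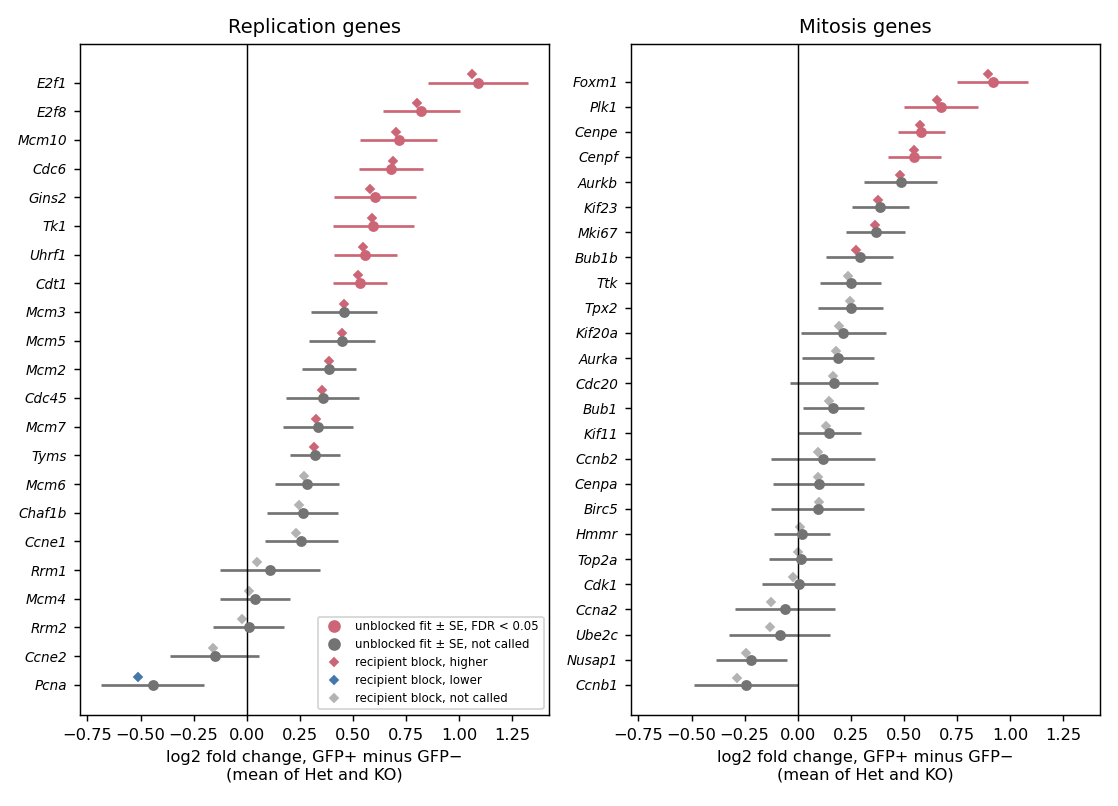
Log2 fold change of each member, GFP-positive minus GFP-negative, as the mean of Het and KO. Circles with bars are the unblocked fit ± SE (red where FDR is under 0.05), diamonds the fit with the recipient as a block (red higher, blue lower, grey not called). The 12 called members span 0.53 to 1.09, and Pcna is at the bottom of the replication panel at -0.44.

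The factors of the G1/S switch included the member with the largest change. E2f1 encodes an activating E2F factor (ENSMUSG00000027490.13, chromosome 2, 154559407 to 154569892, minus strand). In replicates 1 to 3 of each group, E2f1 stood at 11.0, 7.15 and 8.12 CPM in Het GFP-negative, 19.3, 20.7 and 18.1 in Het GFP-positive, 7.83, 11.9 and 12.6 in KO GFP-negative and 11.4, 24.3 and 31.3 in KO GFP-positive libraries. The GFP groups did not overlap in Het cells, and in KO cells replicate 1 with GFP (11.4 CPM) fell among the GFP-negative values while the other two lay well above them. Its mean log2 fold change was 1.09 (SE 0.24, FDR 0.0144) by edgeR, and with the recipient as a block 1.15 (SE 0.21, FDR 0.00356) in Het and 0.98 (SE 0.21, FDR 0.0137) in KO cells. E2f8 encodes an atypical E2F repressor that E2F1 itself turns on (ENSMUSG00000046179.13, chromosome 7, 48866429 to 48881596, minus strand). Its values were 35.5, 28.4 and 44.6 CPM in Het GFP-negative, 51.3, 56.2 and 84.3 in Het GFP-positive, 35.4, 45.8 and 47.6 in KO GFP-negative and 56.6, 70.7 and 98.7 in KO GFP-positive libraries. The GFP groups did not overlap in either genotype, and the mean change by edgeR was 0.82 (SE 0.18, FDR 0.0155). An antisense gene, Gm2788, covers 11.2% of the E2f8 exons, and with the counting strand not given in the sources used here its share of the E2f8 counts is uncertain.

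The 2 genes of cyclin E, the partner of CDK2 at the G1/S switch, did not pass. Ccne1 was at 28.9, 25.7 and 27.1 CPM in Het GFP-negative, 38.7, 30.1 and 36.8 in Het GFP-positive, 33.0, 32.6 and 45.4 in KO GFP-negative and 38.8, 24.99 and 55.4 in KO GFP-positive libraries, with a mean change of 0.26 (SE 0.17, FDR 0.286) by edgeR. The Het groups of Ccne1 did not overlap and the KO groups did. Ccne2, 17.4% of whose exons lie under the opposite-strand gene Ints8, was higher in GFP-positive cells in 2 of 6 recipients, with a change of -0.15 (SE 0.21, FDR 0.624). The levels of the 4 genes, averaged over the 12 libraries, ran from 4.85 CPM per kb of exon for E2f1 to 13.1 for Ccne1.

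Origin licensing and firing genes, 11 in all, had a positive mean change in every case, and 4 of them passed. Cdc6 loads the MCM helicase and is degraded when origins must not be relicensed (ENSMUSG00000017499.11, chromosome 11, 98907801 to 98923940, plus strand). It moved from 24.9, 29.5 and 28.03 CPM in Het GFP-negative to 40.1, 55.8 and 46.1 CPM in Het GFP-positive libraries, and from 30.1, 36.1 and 51.4 CPM in KO GFP-negative to 54.3, 51.4 and 69.3 CPM in KO GFP-positive libraries. The Het groups lay apart, and the KO groups met at 51.4 CPM, in GFP-negative replicate 3 and GFP-positive replicate 2. The mean change was 0.68 (SE 0.15, FDR 0.0155). Cdt1, the partner of CDC6 in loading (ENSMUSG00000006585.2, chromosome 8, 122568015 to 122573128, plus strand), stood at 36.9, 32.5 and 45.1 CPM in Het GFP-negative, 57.5, 47.2 and 68.9 in Het GFP-positive, 46.6, 44.4 and 46.0 in KO GFP-negative and 59.1, 54.3 and 73.9 in KO GFP-positive libraries. The GFP groups did not overlap in either genotype, and the mean change of Cdt1 was 0.53 (SE 0.13, FDR 0.0205) by edgeR.

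Mcm10, which helps start the loaded helicase (ENSMUSG00000026669.10, chromosome 2, 4989714 to 5012791, minus strand), was at 22.5, 19.0 and 28.6 CPM in Het GFP-negative, 35.3, 35.5 and 52.8 in Het GFP-positive, 25.2, 29.9 and 39.8 in KO GFP-negative and 44.4, 35.7 and 62.0 in KO GFP-positive libraries. The Het groups did not overlap, the KO groups overlapped by replicate 3 without GFP, and the mean change by edgeR was 0.71 (SE 0.18, FDR 0.0242). Gins2, a subunit of the GINS part of the helicase (ENSMUSG00000031821.7, chromosome 8, 120578633 to 120589304, minus strand), had the lowest level of the members per kb of exon (2.63 CPM per kb on average) and was at 7.08, 5.38 and 9.42 CPM in Het GFP-negative, 9.47, 9.37 and 15.3 in Het GFP-positive, 9.70, 9.30 and 11.1 in KO GFP-negative and 13.6, 12.1 and 17.7 in KO GFP-positive libraries. Its change of 0.61 (SE 0.19, FDR 0.0484) lies close to the threshold, and 67.3% of its exon length is overlapped by Gse1 on the opposite strand, so its value is uncertain.

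The subunits of the MCM helicase itself did not pass in unblocked edgeR with all 12 libraries and its default scaling (TMM). Without the block Mcm2, Mcm3 and Mcm5 were called, all higher, by DESeq2 and by edgeR with DESeq2 size factors. Mcm6, the highest of them per kb of exon, was at 166, 161 and 199 CPM in Het GFP-negative, 186, 228 and 291 in Het GFP-positive, 223, 229 and 305 in KO GFP-negative and 342, 228 and 265 in KO GFP-positive libraries, with a mean change of 0.28 (SE 0.15, FDR 0.191) by edgeR. Mcm5 followed, at 92.0, 97.9 and 127 CPM in Het GFP-negative, 143, 168 and 185 in Het GFP-positive, 136, 139.7 and 203 in KO GFP-negative and 201, 141 and 225 in KO GFP-positive libraries, with 0.45 (SE 0.16, FDR 0.0620). Mcm5 was higher with GFP in 6 of 6 recipients and Mcm6 in 4 of 6, the exceptions being KO recipients 2 and 3. Over Mcm2 to Mcm7 the mean log2 fold changes ran from 0.04 for Mcm4 to 0.46 for Mcm3. With the recipient as a block Mcm2, Mcm3, Mcm5 and Mcm7 were called, along with Cdc45, the helicase cofactor, at 0.35 (SE 0.13, FDR 0.0435).

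Among the genes of the fork, of nucleotide supply and of chromatin assembly the members went in different directions. Uhrf1, which brings DNA methylation to newly made DNA (ENSMUSG00000001228.10, chromosome 17, 56303321 to 56323486, plus strand), was at 91.3, 86.6 and 106 CPM in Het GFP-negative, 128, 154 and 169 in Het GFP-positive, 118, 111 and 158 in KO GFP-negative and 172, 131 and 223 in KO GFP-positive libraries. Each recipient had more Uhrf1 with GFP, and the mean change by edgeR was 0.56 (SE 0.15, FDR 0.0280). Tk1, the thymidine kinase of S phase (ENSMUSG00000025574.9, chromosome 11, 117815526 to 117826092, minus strand), stood at 35.6, 24.6 and 48.9 CPM in Het GFP-negative, 66.3, 40.6 and 64.5 in Het GFP-positive, 44.9, 36.9 and 53.0 in KO GFP-negative and 61.8, 50.7 and 80.1 in KO GFP-positive libraries, again higher with GFP in 6 of 6 recipients, with 0.60 (SE 0.19, FDR 0.0497).

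Pcna, the sliding clamp of the fork and a common marker of S phase (ENSMUSG00000027342.10, chromosome 2, 132249162 to 132253314, minus strand), went the other way in most recipients. Its values were 137, 172 and 187 CPM in Het GFP-negative, 82.7, 104 and 158 in Het GFP-positive, 196, 149.8 and 247 in KO GFP-negative and 231, 79.2 and 145 in KO GFP-positive libraries. Pcna was lower with GFP in 5 of 6 recipients and higher in KO recipient 1, and its groups overlapped in both genotypes. The mean log2 fold change was -0.44 (SE 0.24, FDR 0.200) by edgeR without the block and -0.51 (SE 0.15, FDR 0.0167) with it, and it was below 0 in all 20 settings, from -0.68 to -0.22. Without KO GFP-positive replicate 1 it was called lower in the unblocked fit as well. Rrm2, the regulated subunit of ribonucleotide reductase, stood at 116, 129.8 and 123 CPM in Het GFP-negative, 92.2, 158 and 146 in Het GFP-positive, 143, 158 and 178 in KO GFP-negative and 183, 101 and 165 in KO GFP-positive libraries, with 0.01 (SE 0.17, FDR 0.978). Rrm1, the large subunit, differed by 0.11 (SE 0.24, FDR 0.766). For both subunits 3 of 6 recipients were higher with GFP. Tyms, the thymidylate synthase, and Chaf1b, a histone chaperone subunit, had mean changes of 0.32 (SE 0.12, FDR 0.0732) and 0.26 (SE 0.17, FDR 0.271), and Tyms was called with the block at 0.32 (SE 0.10, FDR 0.0228).

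**Figure D3:**
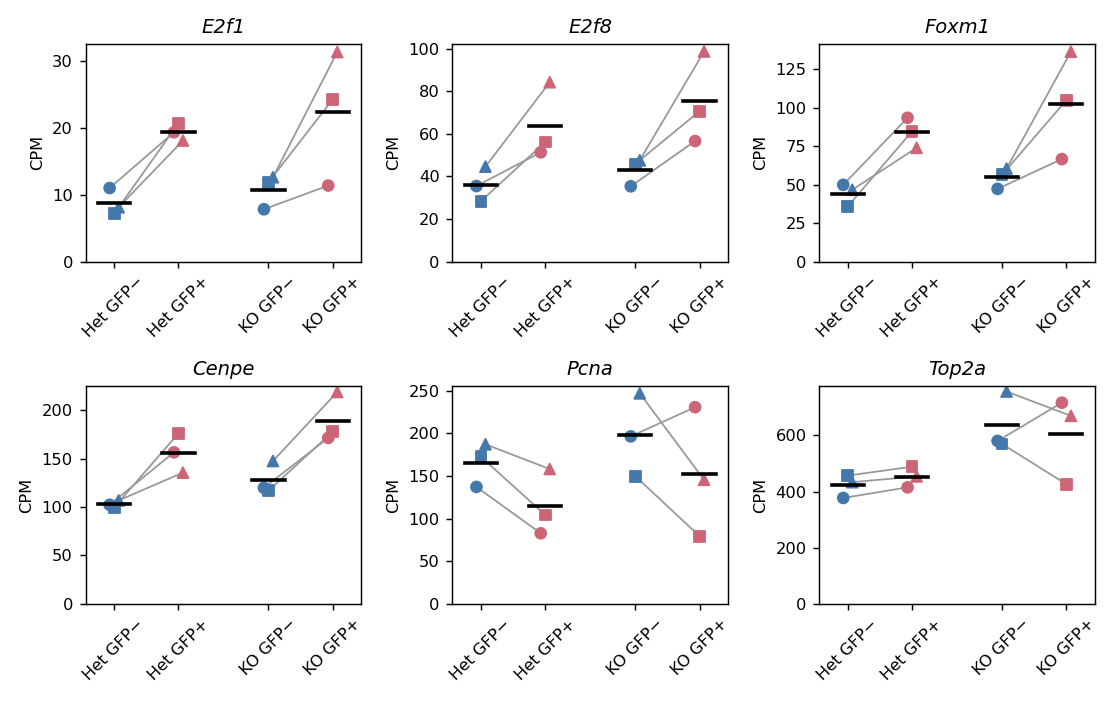
CPM of 6 members by group, with lines joining the libraries of a recipient (circles, squares and triangles are recipients 1 to 3) and black bars for group means. E2f1, E2f8, Foxm1 and Cenpe rise along every line, Pcna falls along 5 of 6, and Top2a rises along 4 of 6 with KO means of 636 CPM without and 604 CPM with GFP.

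Of the 10 genes of mitotic entry and exit, Foxm1 and Plk1 were called. Foxm1 encodes the transcription factor of the G2/M programme (ENSMUSG00000001517.10, chromosome 6, 128362967 to 128375893, plus strand). Its values were 49.9, 35.8 and 46.6 CPM in Het GFP-negative, 93.5, 84.7 and 74.0 in Het GFP-positive, 47.3, 56.4 and 60.4 in KO GFP-negative and 66.6, 105 and 136 in KO GFP-positive libraries. The GFP groups did not overlap in either genotype. Foxm1 had the smallest FDR of the members in the mean comparison, at 0.92 (SE 0.17, FDR 0.00707) by edgeR, and 0.93 (SE 0.16, FDR 0.00269) in Het and 0.86 (SE 0.16, FDR 0.00775) in KO cells with the block. Plk1, the Polo kinase of mitosis (ENSMUSG00000030867.6, chromosome 7, 122159437 to 122169875, plus strand), was at 23.0, 18.5 and 24.5 CPM in Het GFP-negative, 38.0, 46.4 and 37.2 in Het GFP-positive, 27.1, 27.3 and 39.5 in KO GFP-negative and 40.1, 28.6 and 59.0 in KO GFP-positive libraries, with 0.67 (SE 0.18, FDR 0.0259). In Het cells the groups of Plk1 did not overlap, and in KO recipient 2 the step was from 27.3 to 28.6 CPM only. Aurkb, the kinase of the chromosomal passenger complex, passed in edgeR with the block, at 0.48 (SE 0.12, FDR 0.00757), and in DESeq2 without it.

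The cyclins and the kinase that drive entry did not pass in edgeR with all 12 libraries, with or without the block, where no offset was used. Ccnb2 was called when the block was joined to an offset for GC content and length. Ccnb2, the cyclin B with the highest level per kb, was at 50.6, 44.4 and 87.6 CPM in Het GFP-negative, 49.5, 58.9 and 92.9 in Het GFP-positive, 91.9, 57.2 and 99.9 in KO GFP-negative and 123, 55.7 and 82.7 in KO GFP-positive libraries. Ccna2, a cyclin of S phase and G2, was at 98.7, 99.3 and 144 CPM in Het GFP-negative, 88.8, 89.8 and 158 in Het GFP-positive, 168, 131 and 196 in KO GFP-negative and 229, 85.0 and 142 in KO GFP-positive libraries. The GFP groups of each overlapped in both genotypes, and their mean changes were 0.12 (SE 0.25, FDR 0.752) and -0.06 (SE 0.23, FDR 0.874). Ccnb1 and Cdk1, the subunits of the mitotic kinase, differed by -0.24 (SE 0.25, FDR 0.491) and 0.00 (SE 0.17, FDR 0.990). Ccnb1 was lower with GFP in 5 of 6 recipients, all but KO recipient 1. Cdc20 and Ube2c, which serve the ligase that ends mitosis, differed by 0.17 (SE 0.21, FDR 0.569) and -0.09 (SE 0.24, FDR 0.820), and Aurka by 0.19 (SE 0.17, FDR 0.432). Opposite-strand genes cover 22.8% of the exons of Ube2c (Tnnc2) and 12.5% of those of Ccna2 (Exosc9).

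Checkpoint, centromere and passenger genes, 7 in all, had positive mean changes, and Cenpe and Cenpf passed. Cenpe, the kinetochore motor (ENSMUSG00000045328.7, chromosome 3, 135212563 to 135273540, plus strand), was at 102, 99.5 and 107 CPM in Het GFP-negative, 156, 176 and 135 in Het GFP-positive, 119.8, 117 and 147 in KO GFP-negative and 171, 178 and 219 in KO GFP-positive libraries. The groups did not overlap in either genotype, and the standard error was the smallest of the called members, with a change of 0.58 (SE 0.11, FDR 0.00930) by edgeR. Cenpf, a large kinetochore protein of G2 and M (ENSMUSG00000026605.10, chromosome 1, 189640606 to 189688086, minus strand), stood at 98.0, 85.0 and 115 CPM in Het GFP-negative, 146, 149 and 152 in Het GFP-positive, 99.3, 113 and 121 in KO GFP-negative and 142, 131 and 199 in KO GFP-positive libraries, also without overlap in either genotype, and changed by 0.55 (SE 0.13, FDR 0.0180).

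Cenpa, the centromeric histone, and Bub1b, a checkpoint kinase relative, are the most abundant of this set per kb. Cenpa was at 57.3, 43.9 and 94.1 CPM in Het GFP-negative, 64.0, 58.2 and 91.4 in Het GFP-positive, 83.6, 57.3 and 86.9 in KO GFP-negative and 97.7, 52.8 and 84.0 in KO GFP-positive libraries, with a mean change of 0.10 (SE 0.21, FDR 0.766). Bub1b was at 61.3, 57.3 and 73.4 CPM in Het GFP-negative, 72.8, 86.3 and 93.3 in Het GFP-positive, 97.7, 81.3 and 117 in KO GFP-negative and 131, 72.8 and 129 in KO GFP-positive libraries, with 0.29 (SE 0.16, FDR 0.195) without and 0.27 (SE 0.10, FDR 0.0499) with the block. Bub1b was higher with GFP in 5 of 6 recipients and Cenpa in 3 of 6. Ttk, Bub1 and Birc5 (survivin, of the passenger complex) differed by 0.25, 0.17 and 0.09 on the log2 scale, and none of the 3 passed in edgeR with or without the block, although Ttk and Bub1 were called when the block was joined to an offset for GC content and length.

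None of the 6 spindle and cytokinesis genes passed in the unblocked edgeR fit with its default scaling (TMM) and no offset. Kif23 was called by DESeq2, by unblocked edgeR with DESeq2 size factors, and with an offset for GC content and length. Kif11 was called when that offset was joined to the block. Kif11, the motor that separates the spindle poles, was at 115, 122 and 143 CPM in Het GFP-negative, 125, 166 and 169 in Het GFP-positive, 154, 169 and 206 in KO GFP-negative and 216, 127 and 190.4 in KO GFP-positive libraries. Tpx2, which activates Aurora A on the spindle, was at 66.0, 66.3 and 92.4 CPM in Het GFP-negative, 78.0, 90.5 and 102 in Het GFP-positive, 97.8, 83.3 and 124 in KO GFP-negative and 141, 89.2 and 126 in KO GFP-positive libraries. Their mean changes were 0.15 (SE 0.15, FDR 0.485) and 0.25 (SE 0.15, FDR 0.251), and Tpx2 was higher with GFP in 6 of 6 recipients. Kif23, a motor of the midzone, was called with the block at 0.38 (SE 0.10, FDR 0.00969). Nusap1, a microtubule bundling protein, was lower with GFP in 5 of 6 recipients, all but KO recipient 1, at -0.22 (SE 0.17, FDR 0.359). Hmmr and Kif20a differed by 0.02 and 0.21, and Cdc23 on the opposite strand covers 29.3% of the Kif20a exons.

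Mki67 and Top2a, the members with the most counts, are common markers of cycling cells. Mki67, which coats mitotic chromosomes (ENSMUSG00000031004.7, chromosome 7, 135689788 to 135716379, minus strand), was the most abundant member per kb of exon (152 CPM per kb on average) and stood at 1124, 1073 and 1371 CPM in Het GFP-negative, 1561, 1296 and 1607 in Het GFP-positive, 1346, 1427 and 1692 in KO GFP-negative and 1988, 1635 and 2311 in KO GFP-positive libraries. It was higher with GFP in 6 of 6 recipients, with a mean change of 0.37 (SE 0.14, FDR 0.0816) without and 0.36 (SE 0.12, FDR 0.0276) with the block. Top2a, the topoisomerase that untangles chromosomes (ENSMUSG00000020914.13, chromosome 11, 98992943 to 99024189, minus strand), was at 377, 457 and 433 CPM in Het GFP-negative, 415, 489 and 454 in Het GFP-positive, 580.5, 569.6 and 757 in KO GFP-negative and 717, 426 and 670.0 in KO GFP-positive libraries. Its GFP groups overlapped in both genotypes, and its mean change was 0.01 (SE 0.15, FDR 0.957). In every library it was the second most abundant member by CPM after Mki67.

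**Figure D4:**
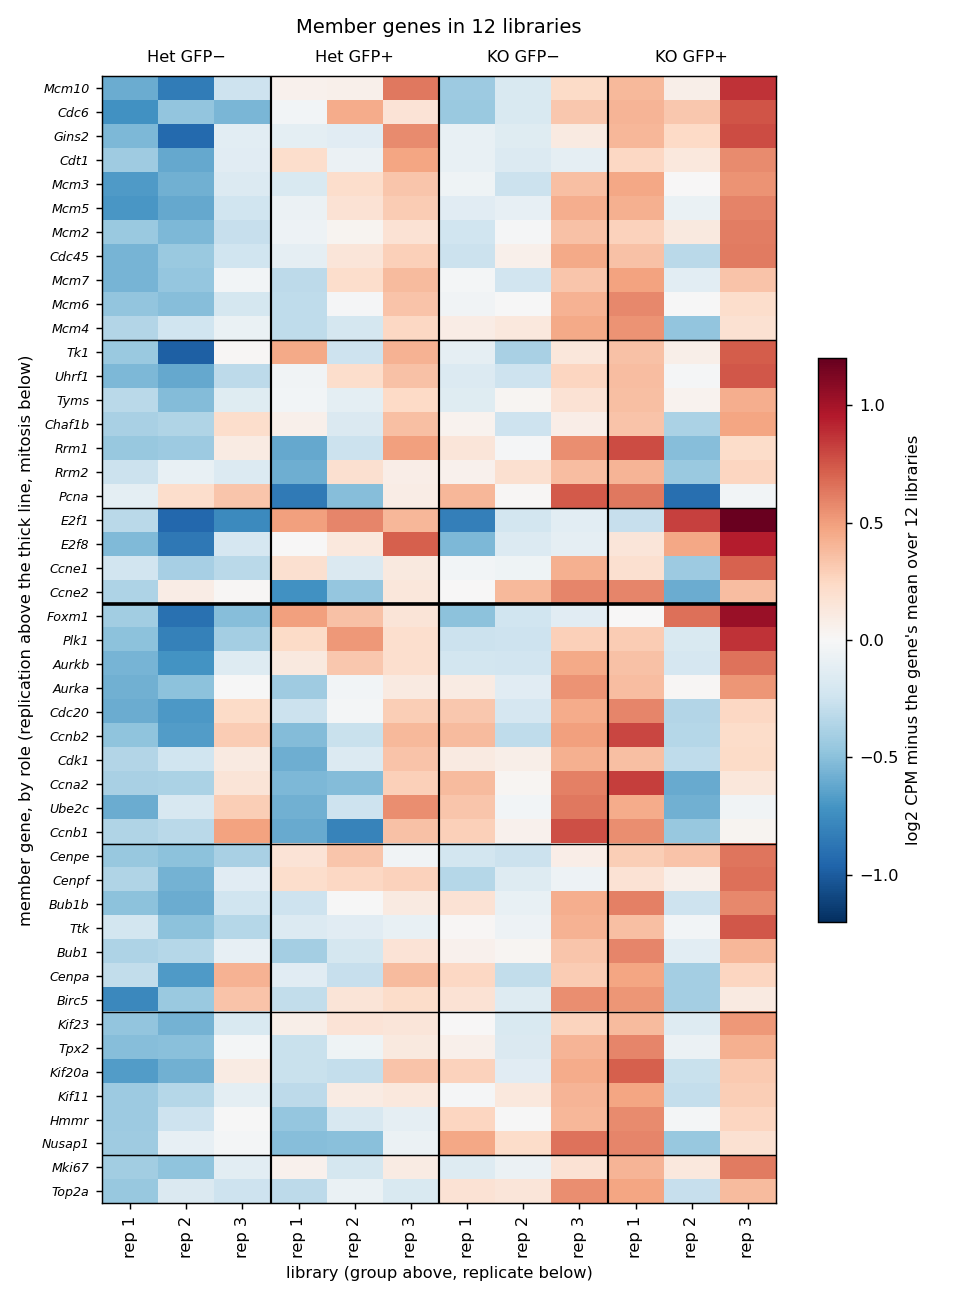
Log2 CPM of the 47 members in 12 libraries, each gene centred on its mean over the libraries and ordered by mean change within its role (replication above the thick line, mitosis below). Red is above and blue below the gene's mean. KO GFP-positive replicate 3 has the highest and Het GFP-negative replicate 2 the lowest replication score, and Pcna lies below its mean in 4 of the 6 GFP-positive libraries.

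Counted within recipients, 22 of 47 members were higher in the GFP-positive library in 6 of 6 and 0 were lower in 6 of 6, where 17.7% of all tested genes were higher and 19.9% lower in 6 of 6. The 22 were 13 of the 22 replication and 9 of the 25 mitosis genes. The recipients did not take equal part: 36, 41 and 41 members were higher with GFP in Het recipients 1 to 3, 47 in KO recipient 1, and 23 and 27 in KO recipients 2 and 3. KO recipient 1 was thus the recipient in which every member was higher, Pcna, Ccnb1 and Nusap1 included, and its GFP-positive library is the one that stood apart. Its granulocyte marker sum went from 145 CPM without to 786 CPM with GFP. That sum was higher with GFP in 6 of 6 recipients, and in KO recipient 3 it went from 34.1 to 361 CPM.

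By role, the mean within-recipient difference with GFP on the log2 scale was 0.42 ± 0.21 for origin licensing and firing, 0.16 ± 0.22 for fork, nucleotide supply and chromatin, and 0.45 ± 0.21 for G1/S control (SD, n = 6 recipients each). It was 0.18 ± 0.23 for mitotic entry and exit, 0.28 ± 0.18 for checkpoint, centromere and passenger genes, 0.11 ± 0.22 for spindle and cytokinesis and 0.18 ± 0.18 for chromosome structure (SD, n = 6 each). The means of the licensing and of the G1/S genes were higher in 6 of 6 recipients, as was that of checkpoint and centromere genes, though single genes could be lower. In KO recipients 2 and 3 the mean of the spindle genes was lower, by differences of -0.18 and -0.10, as was that of mitotic entry and exit, by -0.11 and -0.06. The means of the fork and of the chromosome structure genes were also lower in KO recipient 2, by -0.21 and -0.11.

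Between genotypes, the comparison that the design text names for EOMES-dependent genes is Het against KO GFP-positive cells. All 47 members were lower in Het GFP-positive than in KO GFP-positive cells in the fit, with a median log2 fold change of -0.23 against 0.01 over all tested genes, and 0 were called by edgeR, where 0.106% of all genes were. At an unadjusted p under 0.05 stood 4 members, DESeq2 called 0 members and 0.703% of all genes, and the smallest FDR was 0.578. For 3 members the groups did not overlap, all lower in Het cells, where 3.26% of all genes did so. Over the 11 settings run, 0 to 11 of the 47 were above 0, so the direction of single members was not fixed.

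Hmmr had the smallest FDR in that comparison, at -0.55 (SE 0.19, FDR 0.578), with 40.5, 49.2 and 51.9 CPM in Het and 82.9, 55.0 and 67.0 CPM in KO GFP-positive libraries. Top2a differed by -0.42 (SE 0.21, FDR 0.843) and Mki67 by -0.41 (SE 0.20, FDR 0.823). Hmmr, which binds spindle microtubules, was named after its value was seen.

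The same direction stood in the GFP-negative cells. All 47 members were lower in Het than in KO GFP-negative cells, with a median of -0.45 against 0.01 over all genes, and 0 were called by edgeR, where 0% of all genes were called. At an unadjusted p under 0.05 stood 14 members, all lower in Het cells, with the share of all genes at that p not given here. DESeq2 called 0 members and 0.34% of all genes, and the smallest FDR was 0.935. The groups did not overlap for 17 members, all lower in Het cells, where 5.89% of all genes did so. The direction of all 47 held in the 11 settings run, with medians from -0.60 to -0.31. Top2a, for one, was at 377, 457 and 433 CPM in Het and 580.5, 569.6 and 757 CPM in KO GFP-negative libraries, which did not overlap, at -0.59 (SE 0.21, FDR 0.935) by edgeR. Genotype is confounded with recipient and, as far as the labels show, with donor, so that these cannot be told apart.

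Whether the GFP difference itself depended on genotype was asked by the interaction of GFP and genotype. It called 0 members by edgeR, where 0.00755% of all genes were called, with 0 at an unadjusted p under 0.05 and 0 called by DESeq2, which called 0.0831% of all genes. The median interaction of the members was 0.15 on the log2 scale, positive where the difference was larger in Het cells, and ran from -0.01 to 0.30 over the 20 settings. With the recipient as a block it was 0.16, again with 0 members called, where 0.0755% of all genes were, and without both libraries of KO recipient 1 it was 0.30, with 12 at an unadjusted p under 0.05 and 0 called.

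The members were split by role, and their promoters were read to see what else the 2 classes share. RefSeq windows of 300 bases (250 before to 50 after the start, GRCm38.p6) were at hand for 39 of the 47 members, 19 of replication and 20 of mitosis. Uhrf1 and Mcm7 had more than 1 window, and 1 window per member was counted. Searched on both strands were an E2F motif (TTTCCCGC, TTTCGCGC, TTTGCCGC or TTTGGCGC), the CHR element (TTTGAA) and the CCAAT box (CCAAT). The E2F letters stood in 6 of 19 replication windows (31.6%) and 1 of 20 mitosis windows (5%), against 2.26% of all 32851 windows. The CHR letters stood in 3 of 19 (15.8%) and 15 of 20 (75.0%), against 17.9% of all windows. CCAAT stood in 12 of 19 (63.2%) and 18 of 20 (90%), against 37.4%.

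The 160 bases upstream of the start are shown for 3 replication genes with E2F letters and 3 mitosis genes with CHR letters. They read 5′ to 3′ on the gene's strand, from RefSeq (GRCm38.p6), with matches of the 3 motifs, on either strand, in capitals. Overlapping E2F matches in Mcm5 and Mcm6 merge into 1 run of capitals.
Mcm6 (chr1:128359706-128359865, minus strand): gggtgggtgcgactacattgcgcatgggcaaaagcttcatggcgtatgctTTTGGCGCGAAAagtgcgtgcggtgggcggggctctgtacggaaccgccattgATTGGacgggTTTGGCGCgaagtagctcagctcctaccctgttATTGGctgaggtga
Mcm5 (chr8:75109349-75109508, plus strand): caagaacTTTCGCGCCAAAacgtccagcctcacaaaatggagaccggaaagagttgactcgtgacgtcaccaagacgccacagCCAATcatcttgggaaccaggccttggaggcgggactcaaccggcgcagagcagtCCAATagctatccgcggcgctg
Cdc6 (chr11:98907991-98908150, plus strand): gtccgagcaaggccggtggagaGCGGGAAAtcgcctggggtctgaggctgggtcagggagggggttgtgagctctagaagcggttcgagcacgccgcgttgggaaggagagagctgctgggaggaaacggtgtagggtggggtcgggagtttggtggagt
Cdk1 (chr10:69352913-69353072, minus strand): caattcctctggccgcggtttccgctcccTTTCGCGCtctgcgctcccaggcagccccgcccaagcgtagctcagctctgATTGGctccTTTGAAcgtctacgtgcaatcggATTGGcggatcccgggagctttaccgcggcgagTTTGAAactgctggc
Mki67 (chr7:135716380-135716539, minus strand): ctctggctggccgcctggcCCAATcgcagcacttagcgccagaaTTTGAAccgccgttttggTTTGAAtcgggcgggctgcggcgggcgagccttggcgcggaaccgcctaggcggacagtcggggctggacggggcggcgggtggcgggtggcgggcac
Top2a (chr11:99024190-99024349, minus strand): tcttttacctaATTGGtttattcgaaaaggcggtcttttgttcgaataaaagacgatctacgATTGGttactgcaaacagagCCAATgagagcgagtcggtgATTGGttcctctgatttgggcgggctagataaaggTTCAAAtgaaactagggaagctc

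Mcm6 held 3 E2F matches in this stretch, Mcm5 held 2 and Cdc6 held 1, with no CHR match in any of them. Cdk1 and Mki67 held 2 CHR matches each and Top2a 1, and Cdk1 also held 1 E2F match. Of the 10 called members with a window, 2 held E2F letters in the counted window (20.0%), and of the 29 members not called 5 did (17.2%). The window not counted held 1 E2F match in Uhrf1, a called member, and 0 in Mcm7, so the first share depends on the window taken. CHR letters stood in 3 of 10 called and 15 of 29 other members (30.0% and 51.7%). A match is a description of the letters, not a site of binding.

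The called members were richer in G and C than the others. The GC content of their transcripts had a median of 53.6% in the 12 called members and 48.2% in the other 35. Across the 47 members the mean log2 fold change rose with GC content (Spearman rho 0.56), and across 13146 tested genes with known GC content rho was 0.27. These are correlations across genes of the same libraries, which are not independent. Replication genes had a median GC content of 50.5% and mitosis genes 47.7%. With an offset for GC content and length in each library, 7 members were called without the block, of which 6 (Cdc6, Cenpe, E2f1, E2f8, Foxm1 and Plk1) were among the 12, where 18.3% of all genes were called. With the block 21 members were called, all 12 among them, where 42.2% of all genes were. The offset was chosen after the data had been seen.

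**Figure D5:**
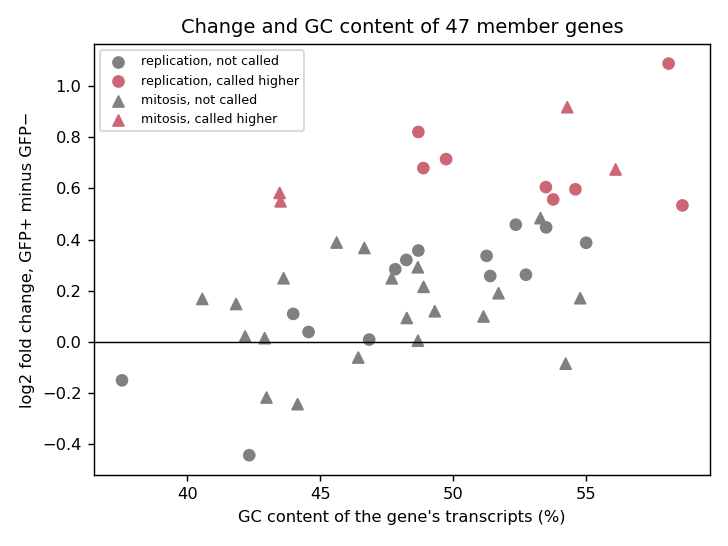
Mean log2 fold change (GFP-positive minus GFP-negative) of the 47 members against the GC content of their transcripts in percent. Circles are replication and triangles mitosis genes, and red marks the 12 called higher. The highest changes, apart from Cenpe and Cenpf near 43.5%, lie above 48% GC, and Pcna is the lowest point at 42.3%.

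Other genes of the cycle were read from 4 lists outside the members. Of 20 further replication genes 6 were called higher and 0 lower in the mean comparison by edgeR, where 9.91% of all tested genes were higher and 8.18% lower, with a median log2 fold change of 0.26. The smallest p-values were those of Lig1, the ligase that joins Okazaki fragments, at 0.85 (SE 0.13, FDR 0.00311), and Pole, the catalytic subunit of DNA polymerase epsilon, at 0.81 (SE 0.16, FDR 0.00916). Of 25 further mitosis genes 6 were higher and 0 lower, against the same shares of all genes, with a median of 0.22. Here Espl1, the separase, led at 0.99 (SE 0.17, FDR 0.00557), followed by Incenp, the scaffold of the passenger complex, at 0.68 (SE 0.13, FDR 0.00868).

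Lig1 stood at 55.4, 45.3 and 49.4 CPM in Het GFP-negative, 100.2, 114 and 93.2 in Het GFP-positive, 62.6, 72.8 and 85.3 in KO GFP-negative and 100.3, 107 and 145 in KO GFP-positive libraries, and its groups did not overlap in either genotype. Espl1 stood at 43.9, 29.7 and 40.7 CPM in Het GFP-negative, 94.0, 88.2 and 66.8 in Het GFP-positive, 50.05, 51.9 and 59.7 in KO GFP-negative and 71.0, 86.4 and 134 in KO GFP-positive libraries. Of 8 G1 cyclins, their kinases and Myc, 2 were higher and 0 lower, where 9.91% and 8.18% of all genes were. These were Cdk6, the kinase of D cyclins, at 0.60 (SE 0.14, FDR 0.0195), and Cdk2, the kinase of cyclin E, at 0.46 (SE 0.12, FDR 0.0258). The change of Cdk6 was 0.99 (SE 0.20, FDR 0.0224) in Het and 0.21 (SE 0.20, FDR 0.558) in KO cells, and its interaction with genotype, 0.78 on the log2 scale, was not called (FDR 1.00 without and 0.280 with the block).

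Of 16 inhibitors and quiescence genes 15 were tested, of which 3 were lower and 2 higher, where 8.18% of all genes were lower and 9.91% higher, with a median of -0.27. Cdkn1b, which encodes the CDK inhibitor p27, fell with GFP, at -0.63 (SE 0.12, FDR 0.00908), as did Btg2, an antiproliferative factor, at -0.65 (SE 0.13, FDR 0.00980), and its relative Btg1, at -0.54 (SE 0.16, FDR 0.0385). Cdkn1b was at 134, 167 and 129 CPM in Het GFP-negative, 91.0, 109.7 and 78.7 in Het GFP-positive, 149, 124 and 121 in KO GFP-negative and 93.7, 83.5 and 77.8 in KO GFP-positive libraries. In each of the 6 recipients Cdkn1b was lower with GFP. Higher with GFP were Cdkn2c, the inhibitor p18 of CDK4 and CDK6, at 0.41 (SE 0.11, FDR 0.0264), and Cdkn1a, the inhibitor p21, at 0.87 (SE 0.28, FDR 0.0495). Cdkn1c did not pass the filter.

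The authors' deposited table for the GFP comparison in Het cells lists 11 members among its 1406 genes, all with positive log2 fold changes. They are E2f1, E2f8, Foxm1, Plk1, Cdc6, Mcm5, Mcm10, Uhrf1, Aurkb, Cenpe and Cenpf, and the table gives E2f1 a log2 fold change of 1.06. The authors' deposited tables for the other two comparisons (388 genes for GFP in KO cells and 77 for genotype in GFP-positive cells) list 0 members.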

How the data were processed

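The deposited values are whole-number counts per gene, which the authors made from a stranded total RNA kit after removal of ribosomal RNA, per the labels' protocols. Per the submitters' processing notes bcl2fastq 1.8.4, TopHat2 2.0.13, featureCounts 1.5.0-p1, DESeq2 1.6.1 and mm10 were used. The strand setting of the counting is not given in the sources used here. The authors' deposited tables, which were used for description only, hold a mean normalized signal, log2 fold changes with their standard errors, a test score and p-values. The deposited matrix and library files differed in 0 cells.

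Deposited counts of the 12 libraries were fitted with 1 mean per group and tested by quasi-likelihood in edgeR 4.0.16 (R 4.3.3, limma 3.58.1), with TMM scaling. Low genes were removed by filterByExpr with a count of 10 and a total of 15 as minima, and 13238 genes remained. Tests were two-sided, with Benjamini-Hochberg adjustment over all tested genes and a call at FDR 0.05. A standard error is the size of the log2 fold change over the root of its F statistic. CPM are TMM-scaled, and the scores use log2 CPM with a prior count of 2. GC content and gene overlaps come from GENCODE M21 and GRCm38, which is the assembly of mm10. Alternatives were DESeq2 (1.42.0) size factors, its Wald test, no filter, the recipient as a block and leaving out each library. Chosen after the data had been seen were an offset for GC content and length, and the block without KO recipient 1.

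Per the design text, both libraries with a given number in a genotype are from the same recipient. Their residuals from group means had correlations of 0.547, 0.241 and 0.617 in Het and 0.507, 0.506 and 0.263 in KO recipients. On data simulated for the Het comparison (13036 genes) the unblocked test called 48% of genes changed by 1 and 93% of genes changed by 2 on the log2 scale. The simulation had no recipient effect and a dispersion (spread between libraries) below the common value of these data, 0.0835. Its shares can thus be too high for these libraries, and changes of the size seen in most members can be missed. The members and lists were chosen with earlier results of these data known. Named with their values in every library were Mki67, Top2a, per role the 2 genes with the highest CPM per kb of exon, and each member called without the block. With the block the rule names the 3 called members with the largest log2 fold change in each comparison, and of each other list the 2 genes with the smallest p. Marker lists were made for CD4 T, CD8 T, B, plasma, NK, monocyte, granulocyte and erythroid cells. The plasma cell sum was 52.5 to 90.8 CPM and the NK cell sum 1.56 to 8.88 CPM over the 12 libraries. Nearly all of the plasma cell sum was Xbp1, at 52.1 to 90.7 CPM, while Jchain, Mzb1 and Sdc1 were each at most 2.14 CPM.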

Additional observations from a re-analysis of the deposited data

How the results depend on the processing

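No call of a member reversed its direction under any setting run. In the mean of both GFP comparisons, 12 members were called. The count was 16 with DESeq2 size factors in edgeR, 11 with no filter on low counts and 19 with the DESeq2 Wald test. It was 23 with the recipient as a replicate block and 24 with that block without both libraries of KO recipient 1. With the GC and length offset it was 7, and with the offset and the block 21. Leaving out each library gave 4 to 16, lowest without KO GFP-positive replicate 3 (4), Het GFP-negative replicate 2 (6) and KO GFP-negative replicate 1 (7). In Het cells, where 0 were called, the count was 1 with no filter on low counts, 11 with DESeq2, 18 with the block, 15 with the offset and the block, and 0 without any 1 library. In KO cells, also at 0, it was 2 with DESeq2, 10 with the block, 14 (9 higher and 5 lower) with the block without both libraries of KO recipient 1, 5 with the offset and the block, and 0 to 4 without 1 library (4 without KO GFP-positive replicate 1). Both comparisons of genotypes and the interaction stayed at 0 called members in each setting, including the recipient block (limma-voom with an estimated correlation of 0.467 for the genotypes) and 0 to 0 without any 1 library. Another prior count left every score difference with its sign, and with DESeq2 size factors that of replication in KO recipient 2 changed sign (-0.01 to 0.05) and those of mitosis in KO recipients 2 and 3 went from -0.09 to -0.03 and from 0.02 to 0.05. The causes of these shifts were not tested. Shares of all genes called are not given here for DESeq2 size factors, for no filter or for the Wald test in the mean comparison. Nor are they given for the offset with the block in Het and KO cells, or for most fits without 1 library. In these settings a shift in the members cannot be told apart from a shift over all genes. Over all genes, the calls ran from 713 to 6204 in the mean comparison, 88 to 3317 in Het and 5 to 3930 in KO cells, 3 to 93 and 0 to 45 between genotypes in GFP-positive and GFP-negative cells, and 0 to 29 for the interaction. Depth limits KO GFP-positive replicate 2 most, with 7195 counts on the members.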
